A study of Mus musculus with 12 samples.

Results

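Voltage-gated calcium channel subunits are described here through 10 genes, Cacna1a, Cacna1b, Cacna1c, Cacna1d, Cacna1e, Cacna1g, Cacna1h, Cacna1i, Cacna2d1 and Cacna2d3, out of 41388 genes counted. They were chosen by mouse symbol, each matched to the Ensembl gene identifier in the deposited tables, and 10 of 10 were found and passed the filter on low counts. RNA was measured by sequencing of total RNA after removal of ribosomal RNA (Ribo-Zero) in primary cortical neurons, that is, neurons dissected and cultured from the cortex of embryonic day 16 Swiss Webster mouse embryos. The cultures were infected with lentivirus at day 5 in vitro and harvested at day 10. The Htt-72Q group (4 libraries, called mutant Htt in the labels) received exon 1 of huntingtin with 72 glutamines, a repeat as long as in Huntington disease. The Htt-25Q group (4 libraries, called wild-type Htt) received exon 1 with 25 glutamines, a length in the normal range, and the Control vector group (4 libraries) received virus with neither. All 3 groups therefore carry a lentivirus and keep their own mouse Htt gene. The sources used here give neither the promoter of the constructs, nor the species of the exon, nor the share of cells infected. Libraries are numbered within a group as their titles number them. The infection label of Control vector 2 differs in wording from that of the other 3 control libraries, and the library was placed by its title. The descriptions also begin with a number (22, 24, 26, 27 or 27_1), called the preparation number here because no label explains it. The labels do not say whether libraries came from separate litters, so p-values measure only the spread between these libraries.

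A voltage-gated calcium channel opens when the membrane depolarises and lets calcium into the cell. Its pore is formed by an alpha1 subunit, and the family of alpha1 genes decides the kind of current. Cav1 channels (L-type, here Cacna1c and Cacna1d) open on strong depolarisation and couple to calcium signalling toward the nucleus. Cav2 channels (P/Q-type Cacna1a, N-type Cacna1b and R-type Cacna1e) drive transmitter release at nerve terminals and also open in dendrites. Cav3 channels (T-type, Cacna1g, Cacna1h and Cacna1i) open near the resting potential and shape burst firing. The alpha2delta proteins (Cacna2d1 and Cacna2d3 among them) sit outside the membrane, help the channel reach the surface and, in the case of Cacna2d1, bind the drug gabapentin. Cytoplasmic beta subunits bind Cav1 and Cav2 pores, but Cav3 pores do not need them.

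The stretch that a beta subunit grips, the alpha interaction domain, is shown because the pore genes that carry it and those that lack it, and the beta genes themselves, are compared here. It lies in the loop between the first and the second repeat of the pore, and its 18 residues were searched in the GENCODE M21 coding transcripts (GRCm38). The 54 coding bases follow 5′ to 3′, with the codons of the residues that the search required in capitals.
Cacna1a: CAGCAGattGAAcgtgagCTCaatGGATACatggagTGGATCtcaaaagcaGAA
Cacna1b: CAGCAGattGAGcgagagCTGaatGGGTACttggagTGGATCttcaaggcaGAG
Cacna1e: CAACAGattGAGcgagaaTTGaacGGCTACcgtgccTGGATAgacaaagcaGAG
Cacna1c: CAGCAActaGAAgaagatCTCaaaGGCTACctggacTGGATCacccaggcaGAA
Cacna1d: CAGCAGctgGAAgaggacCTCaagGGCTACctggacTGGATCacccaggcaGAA
The Cav1 genes Cacna1c and Cacna1d had 49 of 54 bases and 18 of 18 residues alike here, and Cacna1a and Cacna1b had 45 of 54 bases and 16 of 18 residues alike. The stretch was in 3 of 3 coding transcripts of Cacna1a, 5 of 9 of Cacna1b, 22 of 22 of Cacna1c, 5 of 5 of Cacna1d and 3 of 4 of Cacna1e. It was found in 0 of 11 transcripts of Cacna1g, 0 of 5 of Cacna1h and 0 of 4 of Cacna1i, the T-type genes. Whether each transcript was complete was not checked, so the counts for Cacna1b and Cacna1e do not show isoforms without the stretch.

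In Htt-72Q neurons 7 of the 10 subunit RNAs were lower than in Control vector neurons: the 3 T-type genes, the R-type gene Cacna1e, the L-type gene Cacna1c and both alpha2delta genes. None was higher, and Cacna1a, Cacna1b and Cacna1d did not pass. Over all 14707 genes tested, 13.7% were called lower and 9.44% higher in this comparison (23.2% in either direction, edgeR quasi-likelihood test, Benjamini-Hochberg adjusted p under 0.05). The same 7 members were lower in Htt-72Q than in Htt-25Q, where 13.4% of all genes were called lower and 9.07% higher (22.5% in either direction). These comparisons share the Htt-72Q libraries, so they are not independent of each other. The median log2 fold change of the 10 members was -0.97 against Control vector, beside 0.03 for all genes tested, and -0.86 against Htt-25Q, beside 0.034 for all genes. With no scaling beyond the library total the median of all genes moved to 0.113 and 0.102. The calls over all genes then split into 1931 higher and 1702 lower against Control vector, where TMM scaling gave 1389 and 2022, and into 1745 higher and 1690 lower against Htt-25Q, where TMM scaling gave 1334 and 1974. Under each of the 4 scalings tried the 7 members kept negative values and their calls, except Cacna1c against Htt-25Q with library totals only. Between Htt-25Q and Control vector neurons 0 of 10 members were called, as were 0% of all genes, and 0 members were past an unadjusted p of 0.05, where 0.877% of genes were (129). DESeq2 and limma voom called 0 genes in that comparison too. The 0.877% is below the share of 0.05 that an unadjusted threshold lets through where nothing differs. The edgeR test was thus strict in this comparison, and 0 calls do not show that the groups are alike. The median there was -0.2 for the members and -0.002 for all genes tested.

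**Figure D1:**
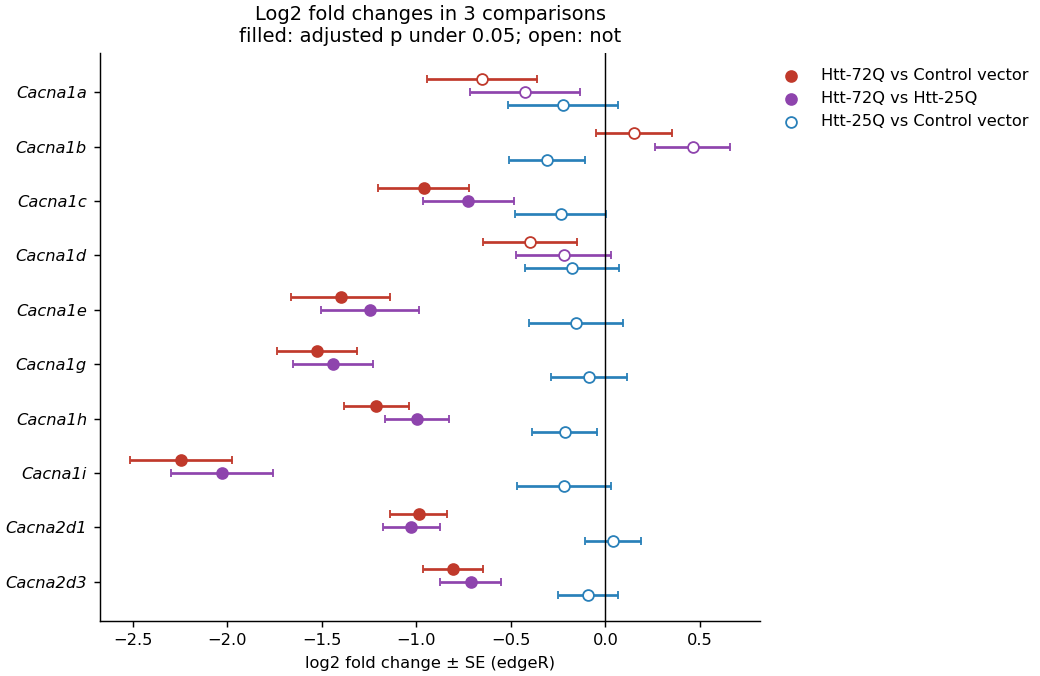
Log2 fold changes (horizontal axis, ± SE) of the 10 subunit genes in 3 comparisons, with filled points for adjusted p under 0.05 and open points otherwise. In both Htt-72Q comparisons 7 genes lie left of 0 with filled points, from -0.71 for Cacna2d3 against Htt-25Q to -2.25 for Cacna1i against Control vector, while the Htt-25Q points, all open, lie between -0.31 and 0.04.

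The libraries held 12.4 to 20.04 M counts in Htt-72Q, 18.1 to 27.5 M in Htt-25Q and 12.7 to 23.4 M in Control vector. The least counted member in any library, Cacna1g in Htt-72Q 3, had 161 counts. Mitochondrial ribosomal RNA took 10.8% to 14.8% of counts in Htt-72Q, 7.77% to 13.2% in Htt-25Q, and 6.71%, 7.8%, 14.2% and 7.15% in Control vector 1 to 4. Only Control vector 3 among the Control vector libraries lay within the Htt-72Q range, and the part of this share in the channel results was not tested. Gapdh divided the libraries across the groups, at 35.4 to 50.2 CPM in Htt-72Q 1, 2 and 4, Htt-25Q 3 and Control vector 2 and 4, at 20.3 CPM in Htt-72Q 3, and at 9.16 to 13.1 CPM in the other 5. The 7 called members were lower in each Htt-72Q library than in any library of the other groups. No Htt-72Q library was among the 5 at 9.16 to 13.1 CPM of Gapdh, so the groups cannot be compared at that level. The part of this division in the channel results was not tested. Mouse Htt itself averaged 168.5 ± 35.95 CPM in Htt-72Q, 148 ± 27.0 in Htt-25Q and 143 ± 63.9 in Control vector (SD, n = 4 each). It was not called in any comparison, and reads of the constructs add to it only where they map to the mouse sequence.

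Cacna1i, which encodes the T-type pore Cav3.3 (ENSMUSG00000022416, GRCm38 chromosome 15, 80287238 to 80398279, plus strand), had the largest fall of the 10 members. Levels are given in TMM-scaled CPM, counts scaled to the size of the library after a correction for its composition. Cacna1i had 19.6, 22.5, 26.8 and 23.2 CPM in Htt-72Q 1 to 4. It had 63.1, 73.1, 135 and 105 CPM in Htt-25Q 1 to 4, and 171, 94.0, 77.1 and 94.9 CPM in Control vector 1 to 4. The highest Htt-72Q library was thus far below the lowest library of either other group, and the Htt-25Q and Control vector libraries overlapped. The log2 fold change was -2.25 ± 0.27 against Control vector (SE, adjusted p = 3.84e-05), a level 0.211 times that of the control, and -2.03 ± 0.27 against Htt-25Q (adjusted p = 8.62e-05). Only 0.73% of all genes tested had a lower log2 fold change against Control vector.

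Cacna1g, the gene of the T-type pore Cav3.1 (ENSMUSG00000020866, chromosome 11, 94408391 to 94474198, minus strand), had 19.8, 23.7, 12.8 and 22.6 CPM in Htt-72Q. It had 51.2, 48.8, 62.3 and 52.6 CPM in Htt-25Q and 75.9, 56.5, 40.3 and 55.4 in Control vector. Htt-72Q 3 was the lowest library, and the Htt-72Q values did not overlap those of either other group. On the log2 scale the change was -1.53 ± 0.21 against Control vector (SE, adjusted p = 0.000121) and -1.44 ± 0.21 against Htt-25Q (adjusted p = 0.000195). Cacna1h, the gene of the T-type pore Cav3.2 (ENSMUSG00000024112, chromosome 17, 25374285 to 25433783, minus strand), had 47.2, 39.1, 36.7 and 37.1 CPM in Htt-72Q. It had 78.6, 80.5, 88.9 and 70.95 CPM in Htt-25Q and 114.8, 112, 67.5 and 75.9 in Control vector. Control vector 1 and 2 were high and Control vector 3 and 4 lay within or close to the range of the Htt-25Q libraries, with the 4 Htt-72Q libraries below all 8. The fitted log2 fold change was -1.21 ± 0.17 against Control vector (SE, adjusted p = 0.000165) and -0.99 ± 0.17 against Htt-25Q (adjusted p = 0.000786).

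Cacna1e, the R-type pore gene of the Cav2 family (ENSMUSG00000004110, chromosome 1, 154390731 to 154884501, minus strand), had 122, 91.3, 88.7 and 111 CPM in Htt-72Q. It had 236, 195, 300.2 and 248 CPM in Htt-25Q and 468, 228, 168 and 227 in Control vector. Control vector 1 had more than any other library, and no Htt-72Q library reached the range of either other group. This gave a log2 fold change of -1.40 ± 0.26 against Control vector (SE, adjusted p = 0.00129) and -1.25 ± 0.26 against Htt-25Q (adjusted p = 0.00292).

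Cacna1b, the N-type pore gene whose channel triggers transmitter release (ENSMUSG00000004113, chromosome 2, 24603887 to 24763152, minus strand), was the member with a positive log2 fold change in both Htt-72Q comparisons. It had 495, 469, 343 and 287 CPM in Htt-72Q, 285, 308, 316 and 249 in Htt-25Q, and 486, 381, 289.7 and 278 in Control vector. The 3 groups overlapped, with Htt-72Q 1 and 2 and Control vector 1 the highest libraries. The log2 fold change was 0.15 ± 0.20 against Control vector (SE, adjusted p = 0.623, 95% interval -0.27 to 0.57). It was 0.46 ± 0.20 against Htt-25Q (adjusted p = 0.112, 95% interval 0.04 to 0.88). No label says that preparation numbers pair libraries, and Htt-25Q 4 has a number of its own. With a block by this number the difference from Htt-25Q was 0.42 and was not called (adjusted p = 0.0951). It was called in 3 of 23 alternatives, namely with a block by title number (0.42, adjusted p = 0.0437), with 1 surrogate variable (0.50, adjusted p = 0.0177) and without Htt-72Q 4 (0.61, adjusted p = 0.0408), and the adjusted p ranged from 0.0177 to 0.288 over the 23.

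Cacna1a, the P/Q-type pore gene of central synapses (ENSMUSG00000034656, chromosome 8, 84388440 to 84640246, plus strand), had 63.3, 53.0, 46.5 and 55.1 CPM in Htt-72Q. It had 51.0, 49.7, 109 and 82.9 CPM in Htt-25Q and 143, 72.7, 50.5 and 76.4 in Control vector. The Htt-72Q libraries lay close together and overlapped Htt-25Q 1 and 2 and Control vector 3, while Control vector 1 and Htt-25Q 3 were high. On the log2 scale the change was -0.65 ± 0.29 against Control vector (SE, adjusted p = 0.128) and -0.43 ± 0.29 against Htt-25Q (adjusted p = 0.334). The value against Control vector turned on 2 control libraries, since it was -0.29 without Control vector 1 (adjusted p = 0.45) and -0.86 without Control vector 3 (adjusted p = 0.0457).

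Cacna1c, the main L-type pore gene of forebrain neurons (ENSMUSG00000051331, chromosome 6, 118587240 to 119196418, minus strand), had 79.3, 60.6, 58.7 and 64.9 CPM in Htt-72Q. It had 91.3, 85.4, 149 and 109.5 CPM in Htt-25Q and 202, 109.8, 83.3 and 117 in Control vector. The groups did not overlap, but Htt-72Q 1 lay just below Control vector 3 and Htt-25Q 2. The fitted log2 fold change was -0.96 ± 0.24 against Control vector (SE, adjusted p = 0.0101) and -0.72 ± 0.24 against Htt-25Q (adjusted p = 0.0431). Against Control vector it kept its call in each of the 23 alternatives tried. Against Htt-25Q it lost the call in 9 of 23: with library totals only (-0.65, adjusted p = 0.0611), with limma voom (-0.70, adjusted p = 0.0533), with libraries blocked by preparation (-0.60, adjusted p = 0.0718), and on leaving out Htt-72Q 2 (-0.69, adjusted p = 0.111), Htt-72Q 3 (-0.68, adjusted p = 0.0966), Htt-72Q 4 (-0.70, adjusted p = 0.095), Htt-25Q 3 (-0.54, adjusted p = 0.141), Htt-25Q 4 (-0.73, adjusted p = 0.0869) or Control vector 2 (-0.73, adjusted p = 0.0548).

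Cacna1d, the other L-type pore gene, whose channel opens at lower voltages than that of Cacna1c (ENSMUSG00000015968, chromosome 14, 30039949 to 30491156, minus strand), had 35.6, 28.5, 19.7 and 26.6 CPM in Htt-72Q. It had 31.1, 25.2, 39.9 and 32.3 CPM in Htt-25Q and 56.4, 34.2, 21.7 and 33.1 in Control vector. Apart from Control vector 1 the 3 groups overlapped over most of their range. This gave a log2 fold change of -0.40 ± 0.25 against Control vector (SE, adjusted p = 0.285, 95% interval -0.94 to 0.14) and -0.22 ± 0.25 against Htt-25Q (adjusted p = 0.582, 95% interval -0.76 to 0.32). These intervals include no change as well as a fall of the size found for Cacna1c against Htt-25Q. Without Control vector 1 the log2 fold change against Control vector was -0.10 (adjusted p = 0.779), and over the 12 libraries left out in turn it was -0.6 to -0.1.

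Cacna2d1, the alpha2delta gene with the higher level (ENSMUSG00000040118, chromosome 5, 15934691 to 16374511, plus strand), had 212, 203, 187 and 248 CPM in Htt-72Q. It had 347, 379, 547 and 459 CPM in Htt-25Q and 450.3, 421.5, 350.3 and 463 in Control vector. The 4 Htt-72Q libraries lay well below the 8 others, among which Htt-25Q 3 was the highest. The log2 fold change was -0.99 ± 0.15 against Control vector (SE, adjusted p = 0.000327) and -1.03 ± 0.15 against Htt-25Q (adjusted p = 0.000238). Cacna2d3, whose protein is known as an alpha2delta subunit of the brain (ENSMUSG00000021991, chromosome 14, 28904943 to 29721864, minus strand), had 32.3, 38.4, 37.2 and 38.3 CPM in Htt-72Q. It had 50.5, 52.2, 76.6 and 60.3 CPM in Htt-25Q and 64.2, 65.1, 48.6 and 77.8 in Control vector. The Htt-72Q libraries lay within a narrow band under the 8 others. On the log2 scale the change was -0.81 ± 0.16 against Control vector (SE, adjusted p = 0.00254) and -0.71 ± 0.16 against Htt-25Q (adjusted p = 0.00573).

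**Figure D2:**
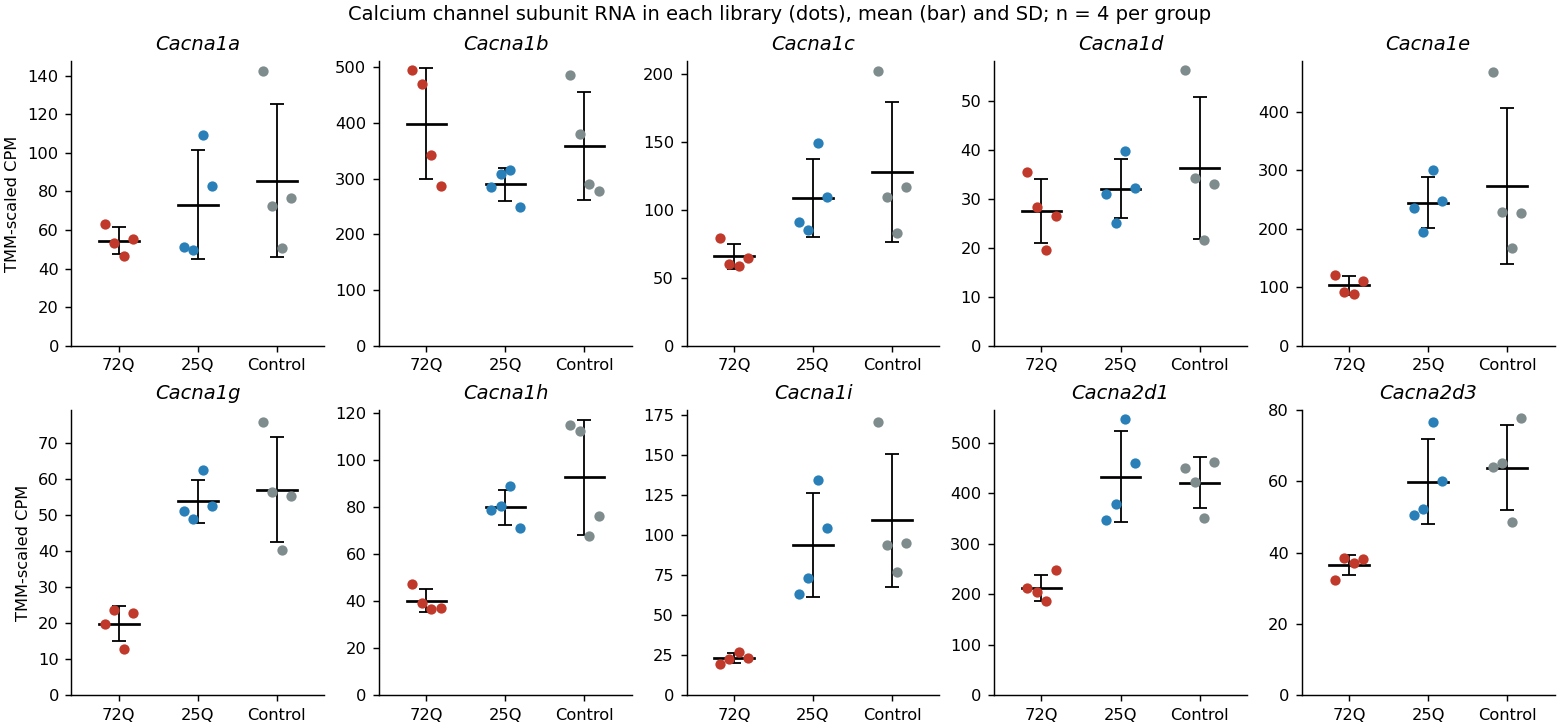
TMM-scaled CPM (vertical axes, each from 0) of the 10 subunit genes in each of 12 libraries (dots), with the mean (thick line) and SD of the 4 libraries per group. The Htt-72Q dots lie below all dots of the other groups for Cacna1c, Cacna1e, Cacna1g, Cacna1h, Cacna1i, Cacna2d1 and Cacna2d3, and among them for Cacna1a, Cacna1b and Cacna1d.

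For those 7 genes the Htt-72Q range lay wholly below that of Control vector, as it did for 13.6% of all genes tested. The same 7 lay wholly below the Htt-25Q range, as did 15.1% of all genes tested. Certain libraries stood high or low across the family. Within the Htt-72Q group, Htt-72Q 3 was the lowest library in 7 of 10 members. Within the Htt-25Q group, Htt-25Q 3 was the highest in 10 of 10. Within the Control vector group, Control vector 1 was the highest in 8 of 10 and Control vector 3 the lowest in 9 of 10. With any 1 of these 4 libraries left out, the 7 members were still called lower in Htt-72Q than in Control vector. Against Htt-25Q the same held, except for Cacna1c without Htt-72Q 3 or Htt-25Q 3.

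Preparation numbers allowed the groups to be compared among libraries that share a number. Preparations 22, 24, 26 and 27_1 each held a Htt-72Q and a Control vector library, and 22, 24 and 27_1 also held a Htt-25Q library. Preparation 27 held Htt-25Q 4 alone. Each of the 7 called members was lower in Htt-72Q than in Control vector in 4 of 4 preparations, and lower than in Htt-25Q in 3 of 3. Their Htt-72Q ranges did not overlap those of either other group, so any pairing of libraries would give these counts. Cacna1i differed from Control vector by -3.11, -2.06, -1.52 and -2.03 on the log2 scale in preparations 22, 24, 26 and 27_1. It differed from Htt-25Q by -1.68, -1.69 and -2.53 in preparations 22, 24 and 27_1. Cacna2d1 differed from Control vector by -0.9 to -1.09, the narrowest span of the 7. Cacna1b was lower in 0 of 4 preparations against Control vector, at 0.03 to 0.3. Against Htt-25Q it differed by 0.8, 0.61 and -0.14 in preparations 22, 24 and 27_1, so that preparation 27_1 went the other way. Cacna1a and Cacna1d were lower than in Control vector in 4 of 4 preparations, but lower than in Htt-25Q in only 1 of 3.

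**Figure D3:**
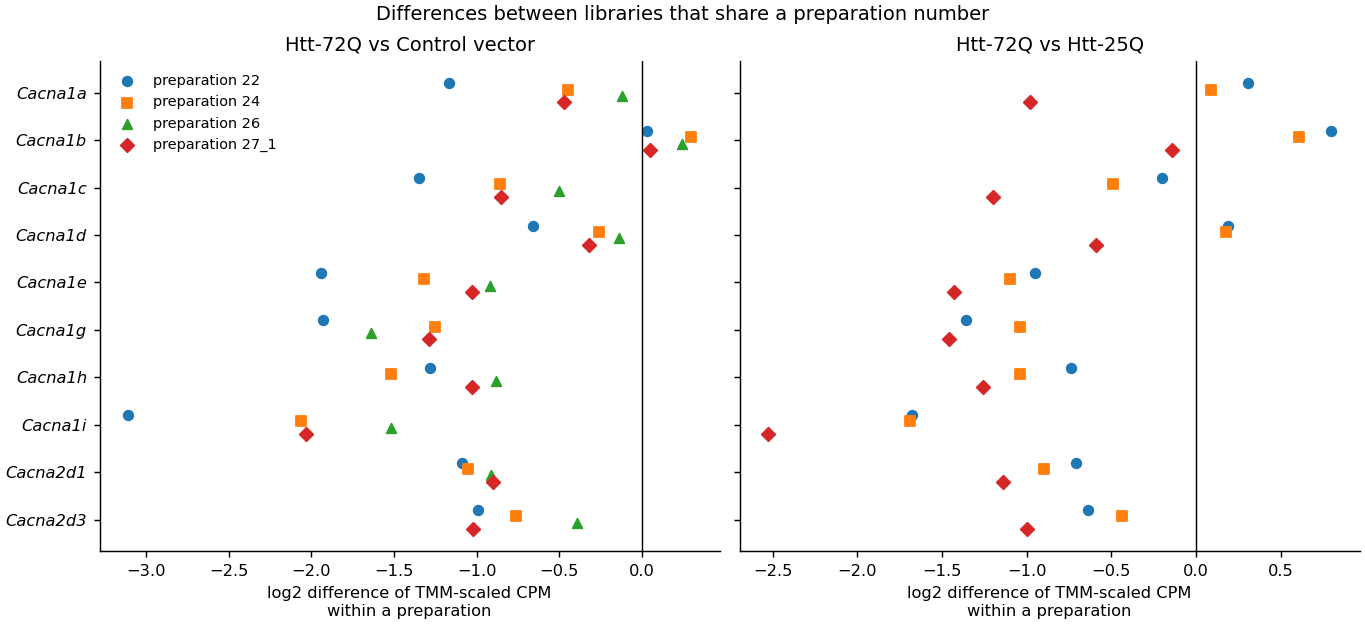
Log2 differences of TMM-scaled CPM (horizontal axes) between the Htt-72Q library and the Control vector library (left) or the Htt-25Q library (right) of the same preparation number, for the 10 subunit genes. Points of the 7 called genes lie left of 0 in each preparation, while those of Cacna1b lie between 0.03 and 0.3 on the left.

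Between Htt-25Q and Control vector the differences within preparations took both signs for most members. Cacna1i differed by -1.43 in preparation 22, by -0.36 in preparation 24 and by 0.5 in preparation 27_1. For 9 of the 10 members 2 of 3 preparations were lower in Htt-25Q, and for Cacna2d3 3 of 3 were, at -0.35 to -0.02. The fitted log2 fold changes in this comparison ran from -0.31 for Cacna1b to 0.04 for Cacna2d1, each with an adjusted p of 1.

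Levels per length were used to compare pores with each other, and they depend on the deposited gene length. That was 24813 bases for Cacna1e and 21191 for Cacna1c, beside 9242 to 11418 for the other alpha1 members. Before division by length, Cacna1e had 273 ± 133 TMM-scaled CPM in Control vector and Cacna1b had 359 ± 96.7. By the deposited RPKM, which divides a count by library total and gene length, Cacna1b was the most abundant of the 8 alpha1 members in all 3 groups, with 41.6 ± 10.96 RPKM in Htt-72Q, 28.7 ± 3.16 RPKM in Htt-25Q and 35.3 ± 9.55 RPKM in Control vector (SD, n = 4 each). In Htt-72Q the order after it was Cacna1a at 4.94 ± 0.691, Cacna1e at 4.31 ± 0.700, Cacna1h at 4.24 ± 0.566, Cacna1c at 3.22 ± 0.487, Cacna1d at 3.10 ± 0.775, Cacna1i at 2.41 ± 0.269 and Cacna1g at 2.02 ± 0.525 RPKM. In Htt-25Q it was Cacna1e at 9.71 ± 1.59, Cacna1i at 9.35 ± 3.10, Cacna1h at 8.06 ± 0.754, Cacna1a at 6.29 ± 2.36, Cacna1g at 5.22 ± 0.516, Cacna1c at 5.05 ± 1.27 and Cacna1d at 3.42 ± 0.601 RPKM. In Control vector it was Cacna1i at 10.8 ± 4.11, Cacna1e at 10.7 ± 5.199, Cacna1h at 9.29 ± 2.52, Cacna1a at 7.32 ± 3.38, Cacna1c at 5.91 ± 2.36, Cacna1g at 5.50 ± 1.42 and Cacna1d at 3.85 ± 1.53 RPKM. Cacna1i was thus 7th of 8 in Htt-72Q, 3rd in Htt-25Q and 2nd in Control vector. Only Cacna1b stood apart by RPKM: the mean ± SD intervals of all other neighbours in each order overlapped. Of the alpha2delta genes, Cacna2d1 had 29.3 ± 3.70 RPKM in Htt-72Q, 56.7 ± 10.9 in Htt-25Q and 54.8 ± 6.99 in Control vector. Cacna2d3 had 10.2 ± 0.794 RPKM in Htt-72Q, 15.95 ± 2.96 in Htt-25Q and 16.9 ± 3.31 in Control vector.

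The make-up of alpha1 RNA separated Htt-72Q from the other groups where its sum did not. The 8 alpha1 members summed to 80.1, 73.8, 55.2 and 54.2 RPKM in Htt-72Q, to 69.7, 70.7, 91.2 and 71.9 RPKM in Htt-25Q and to 129, 89.0, 62.7 and 74.4 RPKM in Control vector, with overlap between all groups. The 3 T-type genes held 11.5%, 12.3%, 14.1% and 15.98% of that sum in Htt-72Q. They held 27.9%, 29.1%, 30.9% and 31.2% in Htt-25Q and 27.6%, 29.8%, 28.6% and 30.2% in Control vector. The T-type share of each Htt-72Q library was thus below every other library by more than the spread within any group. Cacna1b alone held 62.6 ± 5.36% of the sum in Htt-72Q, 38.2 ± 5.13% in Htt-25Q and 40.3 ± 4.02% in Control vector (SD, n = 4 each). The L-type pair Cacna1c and Cacna1d held 9.66 ± 1.25% in Htt-72Q, 11.1 ± 1.11% in Htt-25Q and 10.9 ± 1.25% in Control vector, which overlapped. The shares rest on the genes already tested above and on the deposited gene lengths, and are given as a description. The 2 alpha2delta members summed to 39.5 ± 3.94 RPKM in Htt-72Q, 72.7 ± 13.8 RPKM in Htt-25Q and 71.8 ± 10.2 RPKM in Control vector.

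**Figure D4:**
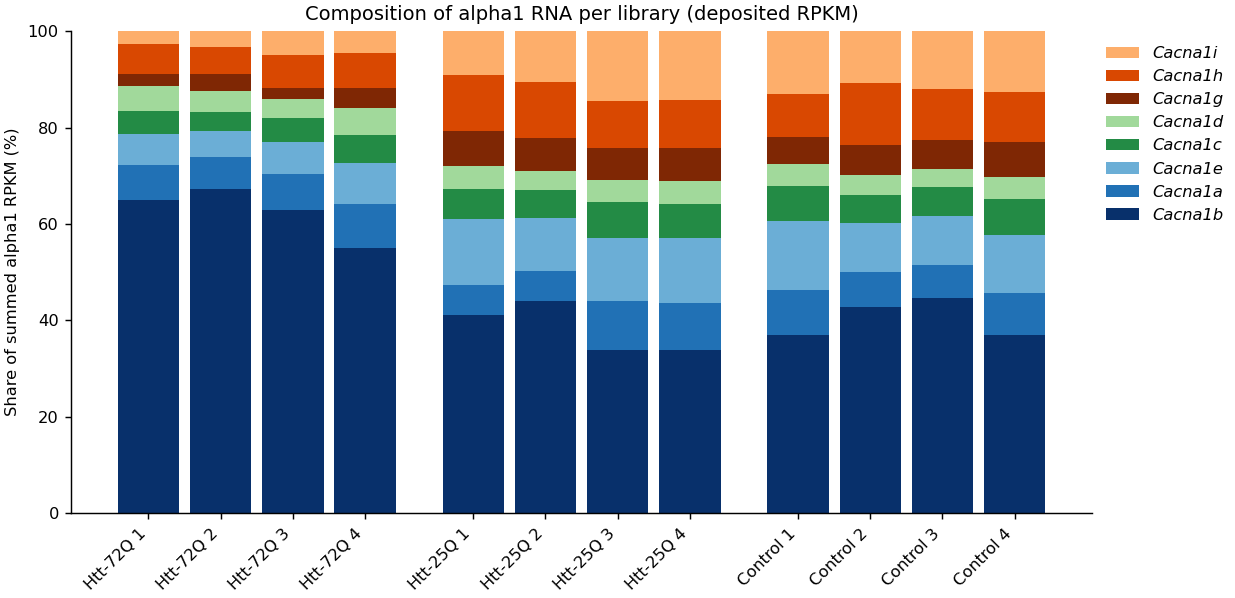
Share of the summed deposited RPKM of the 8 alpha1 members (vertical axis, percent) held by each gene in each of 12 libraries, with Cav2 genes in blue, Cav1 genes in green and Cav3 genes in orange and brown. Cacna1b takes 55.0% to 67.3% of the bar in Htt-72Q libraries and 33.9% to 44.6% in the others, and the 3 Cav3 genes at the top take 11.5% to 15.98% in Htt-72Q libraries and 27.6% to 31.2% in the others.

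The promoters of the member with the largest fall and of the alpha1 member with the most RPKM, which did not pass, are shown because their RNAs moved differently. They were read from RefSeq on GRCm38.p6, as 250 bases before to 50 after the annotated start, 5′ to 3′ on the gene's strand. Of the 10 members 7 had an entry, and 5 motifs were searched on both strands. The CRE palindrome is TGACGTCA and the E-box is CACGTG. The GC box is GGGCGG, and the EGR site, which can run into it, is GCGTGGGCG. The TATA box was searched as TATAAA. Capitals mark GC boxes on either strand.
Cacna1i, chr15:80286988-80287287, plus strand: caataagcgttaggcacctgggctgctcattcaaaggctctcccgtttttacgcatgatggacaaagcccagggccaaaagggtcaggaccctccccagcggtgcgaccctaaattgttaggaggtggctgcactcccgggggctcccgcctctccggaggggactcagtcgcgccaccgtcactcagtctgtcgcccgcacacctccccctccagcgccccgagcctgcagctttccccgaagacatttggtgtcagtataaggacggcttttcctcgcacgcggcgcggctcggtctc
Cacna1b, chr2:24763103-24763402, minus strand: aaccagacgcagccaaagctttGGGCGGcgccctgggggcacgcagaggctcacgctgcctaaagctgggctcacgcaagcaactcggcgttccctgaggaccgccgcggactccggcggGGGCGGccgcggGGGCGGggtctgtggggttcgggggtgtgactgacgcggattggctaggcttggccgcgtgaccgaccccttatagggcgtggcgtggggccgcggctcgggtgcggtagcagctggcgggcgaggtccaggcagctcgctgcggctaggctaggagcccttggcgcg
The Cacna1i window held 0 GC boxes at 62.7% G and C, and the Cacna1b window held 3 at 72.3%. Over 32851 mouse promoters of the same length 35.66% held a GC box, and the median G and C content was 52.7%. The CRE palindrome (in 1.79% of all promoters), the E-box (7.15%) and the EGR site (0.61%) were in 0 of the 10 entries of the 7 members. The TATA box, in 13.62% of all promoters, was found 3 times in the entry of Cacna1d at chr14:30491107-30491406. Among the members with lower RNA, Cacna2d1 held 7 GC boxes in its entry, Cacna2d3 held 6 and Cacna1e held 0, and the entries of Cacna1c held 0, 6 and 0. The entries of Cacna1d, which was not called, held 0 and 6. Cacna1a, Cacna1g and Cacna1h had no entry. The part of these motifs in the channel results was not tested.

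RNAs of 3 of the 4 beta subunits, which bind the stretch printed above and bring Cav1 and Cav2 pores to the membrane, were lower in Htt-72Q. Of the 8 other channel subunit genes tested, 3 were lower in Htt-72Q than in Control vector, 0 were higher and 5 did not pass, with a median log2 fold change of -0.6 beside 0.03 for all genes. The same counts held against Htt-25Q, with a median of -0.59 beside 0.034. Over all genes tested, 13.7% were called lower and 9.44% higher against Control vector, and 13.4% and 9.07% against Htt-25Q. Cacnb3, a major beta gene of brain, had 72.1, 75.6, 54.9 and 67.3 CPM in Htt-72Q, 127, 143, 141 and 132 in Htt-25Q, and 153, 174, 142 and 145 in Control vector. No Htt-72Q library came near the other 8. Its log2 fold change was -1.18 ± 0.12 against Control vector (SE, adjusted p = 9.52e-06) and -1.01 ± 0.12 against Htt-25Q (adjusted p = 3.91e-05). Cacnb4, the beta gene mutated in the lethargic mouse, had a log2 fold change of -0.67 ± 0.15 against Control vector (adjusted p = 0.00574) and -0.64 ± 0.15 against Htt-25Q (adjusted p = 0.00807). Its highest Htt-72Q library (45.7 CPM) lay just above its lowest Htt-25Q library (44.2 CPM). Cacnb1 was at -0.46 ± 0.13 (adjusted p = 0.0203) and -0.54 ± 0.13 (adjusted p = 0.00879) in the same order. Cacnb2 averaged 10.6 ± 1.78 CPM in Htt-72Q, 9.31 ± 0.669 in Htt-25Q and 10.2 ± 0.877 in Control vector, with log2 fold changes of 0.05 ± 0.16 (adjusted p = 0.843) and 0.18 ± 0.16 (adjusted p = 0.45). By RPKM Cacnb3 held 54.1 ± 3.57% of the summed beta RNA in Htt-72Q, 62.2 ± 2.20% in Htt-25Q and 65.6 ± 2.49% in Control vector.

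**Figure D5:**
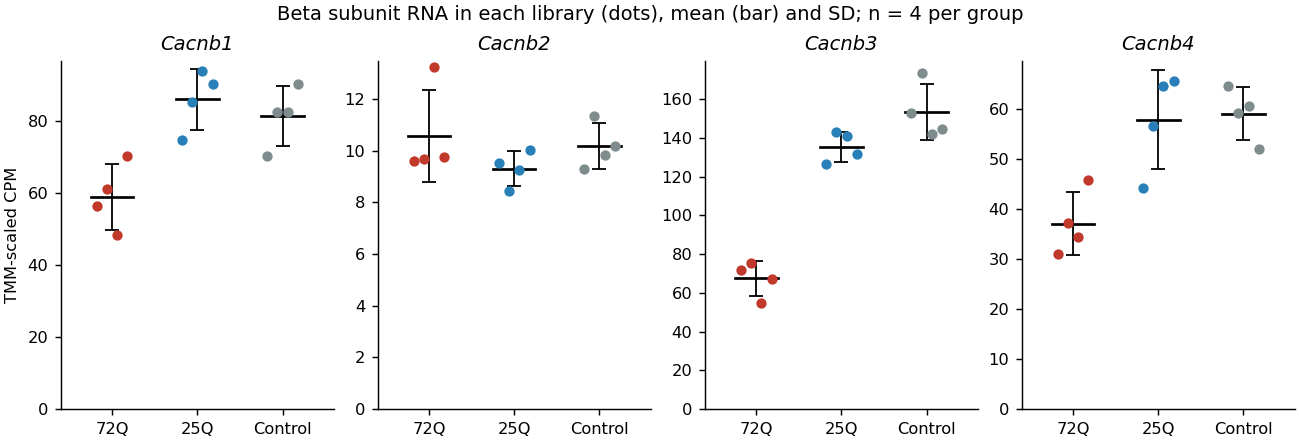
TMM-scaled CPM (vertical axes, each from 0) of the 4 beta subunit genes in each of 12 libraries (dots), with the mean (thick line) and SD of the 4 libraries per group. Cacnb3 lies at 54.9 to 75.6 CPM in Htt-72Q and at 127 to 174 CPM in the other libraries, while the Cacnb2 dots of the 3 groups overlap.

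The remaining pore and alpha2delta genes were low, with group means of at most 1.96 RPKM (Cacna2d2 in Htt-25Q). Cacna1f, the L-type gene of the retina, averaged 0.372 ± 0.246 CPM in Htt-72Q, 0.334 ± 0.126 in Htt-25Q and 0.471 ± 0.181 in Control vector. Cacna1s, the L-type gene of skeletal muscle, averaged 0.359 ± 0.252 CPM in Htt-72Q, 0.972 ± 0.537 in Htt-25Q and 1.06 ± 0.539 in Control vector, with a log2 fold change of -1.46 ± 0.64 against Control vector (adjusted p = 0.113). Cacna2d2 was at -0.52 ± 0.25 (adjusted p = 0.148) and Cacna2d4 at -0.75 ± 0.39 (adjusted p = 0.19) in that comparison.

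Other genes of calcium handling were counted in 5 lists made up with earlier results of these data known. Their counts stand beside the 13.7% and 9.44% of all genes called lower and higher against Control vector, and 13.4% and 9.07% against Htt-25Q. Of 5 tested genes of the gamma and TARP family, relatives of the muscle channel's gamma subunit that mostly serve AMPA receptors, 2 were lower in Htt-72Q than in Control vector and 0 higher (median -0.6). These were Cacng4 (-0.60 ± 0.14, adjusted p = 0.00528) and Cacng3 (-0.96 ± 0.24, adjusted p = 0.00909), and the same genes were lower against Htt-25Q. Of 24 tested channel partners and regulators 10 were lower and 0 higher against Control vector (median -0.51), and 7 and 0 against Htt-25Q (median -0.39). Stx1a, the syntaxin that binds Cav2 channels at release sites, was at -0.69 ± 0.10 (adjusted p = 0.000128), and Akap7, an anchor for the kinase that modulates L-type channels, at -1.11 ± 0.17 (adjusted p = 0.000273). Against Htt-25Q, Stac, an adaptor of L-type channels, was at -1.85 ± 0.29 (adjusted p = 0.000354).

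Of 16 tested buffer and sensor genes 9 were lower and 0 higher in each Htt-72Q comparison (median -0.76 against Control vector and -0.64 against Htt-25Q). The neuronal calcium sensors Vsnl1 (-1.49 ± 0.13, adjusted p = 2.53e-06) and Ncald (-1.08 ± 0.10, adjusted p = 6.25e-06) and the potassium channel partner Kcnip4 (-1.68 ± 0.16, adjusted p = 6.34e-06) led against Control vector. Of 19 tested genes of calcium signalling to the nucleus 10 were lower and 0 higher against Control vector (median -0.56), and 9 were lower and 1 higher against Htt-25Q (median -0.53; the higher gene was the kinase gene Camk2g at 0.43 ± 0.13, adjusted p = 0.0318, named after its value was seen). Camk2b, a calmodulin-dependent kinase of synapses, had 242 ± 28.3 CPM in Htt-72Q and 805 ± 83.2 CPM in Control vector (-1.73 ± 0.12, adjusted p = 4.06e-07). Camkk2, a kinase upstream of Camk4, was at -1.46 ± 0.16 (adjusted p = 1.54e-05) and the calcium-stimulated adenylyl cyclase Adcy1 at -1.50 ± 0.16 (adjusted p = 1.84e-05). Against Htt-25Q, Camk4, a kinase of the nucleus, was at -1.16 ± 0.15 (adjusted p = 7.32e-05).

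Of 26 tested genes that clear calcium or hold it in stores, 9 were lower and 2 higher in each Htt-72Q comparison (median -0.36 against Control vector and -0.27 against Htt-25Q). The 2 higher genes are no larger a share than the 9.44% of all genes called higher against Control vector and the 9.07% against Htt-25Q. Lower against Control vector were Mcu, the pore of the mitochondrial uniporter (-0.87 ± 0.13, adjusted p = 0.000269), Slc8a2, a sodium-calcium exchanger (-1.01 ± 0.16, adjusted p = 0.000345), and Atp2b2, a plasma membrane calcium pump (-1.09 ± 0.20, adjusted p = 0.00128). Against Htt-25Q the pumps Atp2b1 (-1 ± 0.16, adjusted p = 0.00037) and Atp2b4 (-1.19 ± 0.23, adjusted p = 0.00202) were lower. The 2 higher genes, named after their values were seen, were Micu3, a regulator of the uniporter in neurons, at 52.7 ± 12.1 CPM in Htt-72Q and 27.0 ± 5.71 CPM in Control vector (0.96 ± 0.19, adjusted p = 0.00202), and the exchanger gene Slc8a3 (0.45 ± 0.14, adjusted p = 0.0292). Against Htt-25Q they were at 0.85 ± 0.19 (adjusted p = 0.0046) and 0.43 ± 0.14 (adjusted p = 0.0388).

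Markers of cell types moved with the groups, and their sums are given in CPM of the library total, without TMM scaling. The summed level of 8 excitatory neuron markers was 338 to 494 CPM in Htt-72Q, 729 to 933 in Htt-25Q and 683 to 819 in Control vector, and 5 of 8 were lower against Control vector (Neurod6, Slc17a7, Tbr1 and Bcl11b among them). The sum of 8 inhibitory neuron markers was 116 to 175 CPM in Htt-72Q, 183 to 304 in Htt-25Q and 215 to 287 in Control vector, with 4 of 8 lower (Gad1, Sst, Lhx6 and Dlx1). The sum of 8 pan-neuronal markers was 5207 to 5433 CPM in Htt-72Q, 6214 to 7031 in Htt-25Q and 6510 to 7644 in Control vector, with 4 of 8 lower (Rbfox3, Tubb3, Syt1 and Snap25). Against Htt-25Q 7, 4 and 3 of the 8 genes of these lists were called lower, and 0 were called higher in either comparison. All marker counts stand beside the 13.7% of genes called lower and 9.44% called higher against Control vector, and 13.4% and 9.07% against Htt-25Q. In each list 7 of 8 genes had a negative log2 fold change in each comparison. The other gene of each list was positive without a call. These were Slc17a6 (0.37 against Control vector and 0.31 against Htt-25Q), Dlx2 (0.94 and 1.09) and Elavl4 (0.31 and 0.2). These neuronal sums were lower in every Htt-72Q library than in any other, and their part in the channel results was not tested. In bulk RNA, fewer cells of a type and less RNA of a gene per cell cannot be told apart. The sum of 8 astrocyte markers was 2525 to 3075 CPM in Htt-72Q, 2428 to 3007 in Htt-25Q and 2598 to 3111 in Control vector, with 0 of 8 called. The sum of 8 progenitor markers was 372 to 446 CPM in Htt-72Q, 281 to 374 in Htt-25Q and 302 to 325 in Control vector, with Top2a the 1 of 7 tested that was higher against Control vector. Oligodendrocyte lineage markers summed to 541 to 661 CPM in Htt-72Q, 502 to 621.5 in Htt-25Q and 534 to 691 in Control vector, with Mobp the 1 of 8 that was lower. Endothelial markers summed to at most 4.58 CPM, microglia markers to at most 25.4 CPM and fibroblast and mural markers to at most 21.8 CPM in any library, and the microglial gene Tmem119 was at 0 in the Htt-25Q and Control vector groups.

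For each called member the genes with the most similar pattern were sought among 12432 genes, by the root-mean-square difference of log2 CPM centred over the 12 libraries. Nearest to Cacna1i were Grm2, a metabotropic glutamate receptor gene, at 0.231, and Ptpru, a receptor phosphatase gene, at 0.236. Nearest to Cacna1e were Celf2, an RNA-binding protein gene, at 0.0880 and the plexin gene Plxna4 at 0.0924. Nearest to Cacna1c were the receptor gene Acvr1 at 0.0798 and the neurexin gene Nrxn3 at 0.0830. Nearest to Cacna1g were Phf24 at 0.159 and the Wnt ligand gene Wnt7b at 0.171, and nearest to Cacna1h were Agrn, the gene of agrin, at 0.119 and the netrin receptor gene Unc5a at 0.125. Nearest to Cacna2d1 were Ank at 0.0982 and Gabrb2, a GABA-A receptor subunit gene, at 0.0988, and nearest to Cacna2d3 were Stxbp5l at 0.128 and Hecw2 at 0.134. Smaller values mean closer profiles. The measure is not scaled to how far a gene varies, so values of different members cannot be ranked by it. The larger value of Cacna1i, the member with the largest fall, does not show a poorer match.

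Exons of 3 members overlap exons of a gene on the other strand, and the sources used here do not say whether the counting used strand. Over the 12 libraries Gm16183, which shares 1424 bases with Cacna1a, had 26 counts, Chdh, which shares 1036 bases with Cacna1d, had 72, and Tpsg1, which shares 1661 bases with Cacna1h, had 21. The members themselves had 16486, 7344 and 16449 counts in that order. Reads that fall on bases of both genes cannot be told apart without strand.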

How the data were processed

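The deposited table of each of the 12 libraries holds read counts per gene, and beside them the authors' CPM (counts relative to the total of their library) and RPKM (the same divided by gene length), which followed from the deposited counts in 12 of 12 libraries, with differences of at most 5.09e-10 for CPM and 3.20e-10 for RPKM. Per the labels, each library was sequenced in 2 lanes and merged. STAR 2.0.4b, Subread, featureCounts 1.45 and the build GRCm38 are named without roles in the submitters' processing notes. The sources used here do not give strandedness or the annotation release. Gene positions come from the deposited tables (GRCm38), and only the coding transcripts come from GENCODE M21.

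Counts were tested with the edgeR 4.0.16 quasi-likelihood test (R 4.3.3, limma 3.58.1), with TMM scaling, the filterByExpr filter (minimum count 10) and a joint fit of the 12 libraries in 3 groups (9 residual degrees of freedom, 14707 genes tested). P-values are two-sided, adjusted by Benjamini-Hochberg over all genes tested, and called under 0.05. The procedure was also run on simulated counts with planted changes. These were drawn independently for each library, so they do not cover the likeness of libraries that share a preparation number. Levels are TMM-scaled CPM unless RPKM is named, as mean ± SD over 4 libraries. Gapdh and the sums of cell type markers are the exceptions, given as CPM of the library total without TMM scaling. Alternatives were DESeq2 1.42.0, limma voom, 3 other scalings, 2 other filters, fits of only the groups compared, blocks, leaving out each library and 1 surrogate variable (sva 3.50.0). The residuals of libraries sharing a preparation number correlated above 0.1 in 10 of 10 pairs (median 0.282). These numbers, from the descriptions, were therefore taken to pair libraries. Libraries with the same title number did so in 10 of 12 pairs with the same median (0.282), so the correlations do not settle which number pairs libraries. No libraries were duplicates (smallest chi-square per degree of freedom 8.79).

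Named are all 10 members, the other channel subunits, at most 3 called genes per other list and comparison by smallest p, and the 2 nearest profiles of each called member. Some genes that this rule or a marker count would name are not reported here. Members and lists were chosen with earlier results of these data known.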

Additional observations from a re-analysis of the deposited data

How the results depend on the processing

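Under 23 alternatives (11 other settings and each of 12 libraries left out), the counts of genes called and of members called stayed within 1.5 times those given. Of 690 recomputed values, 663 kept their direction and side of the threshold, 9 lost a call, 4 gained one and 14 changed sign. The 9 were all Cacna1c in Htt-72Q against Htt-25Q, and the 4 were Cacna1b in that comparison and Cacna1a against Control vector, as given with those genes. The replicate block by preparation ended the Cacna1c call against Htt-25Q (-0.60, adjusted p = 0.0718), so 6 members were called there, and the block by title number added Cacna1b, so 8 were. The blocks changed no other call of a member.

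The 14 changes of sign were all in Htt-25Q against Control vector, where 0 members were called. Without Control vector 1 the log2 fold changes were 0.14 for Cacna1a, 0.07 for Cacna1c, 0.12 for Cacna1d, 0.24 for Cacna1e, 0.08 for Cacna1g and 0.08 for Cacna1i. With 1 surrogate variable they were 0.00067 for Cacna1a, 0.06 for Cacna1d, 0.08 for Cacna1e and 0.07 for Cacna1g. For Cacna2d1 the value was -0.08 with the block by preparation, -0.06 without Control vector 3 and -0.09 without Htt-25Q 3, and for Cacna2d3 it was 0.01 without Control vector 4. The cause was not tested. Over the 12 libraries left out in turn, the range in this comparison was -0.49 to 0.14 for Cacna1a, -0.43 to 0.07 for Cacna1c, -0.38 to 0.12 for Cacna1d, -0.35 to 0.24 for Cacna1e, -0.24 to 0.08 for Cacna1g, -0.44 to 0.08 for Cacna1i, -0.09 to 0.13 for Cacna2d1 and -0.23 to 0.01 for Cacna2d3. Leaving out 1 library at a time gave -2.4 to -1.95 for Cacna1i against Control vector and -2.18 to -1.8 against Htt-25Q. With 4 libraries per group, the 95% intervals of Cacna1a and Cacna1d, which did not pass in either Htt-72Q comparison, include falls of the size called in other members, while those of Cacna1b do not.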
